A study of Mus musculus with 71 samples.

Results

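The comparison of time-restricted high-fat sucrose feeding with chow comprised 47 of the 71 hippocampal libraries of the series, namely all 23 from mice on the high-fat sucrose diet under time-restricted feeding (HFS TRF) and all 24 from mice with free access to normal chow (NC ad lib). Members were chosen by diet label alone, and the 4 conditions served as blocks. All animals were wild-type male C57BL/6J mice that received their diet from weaning. HFS TRF mice first had free access to the high-fat sucrose diet and in the last weeks could eat only from shortly before lights off to shortly after lights on. The third diet group, 24 mice with free access to the same high-fat sucrose diet (HFS ad lib), entered the same fit and is described only where it shows what differs. Each diet was collected in home-cage (HC) mice at zt3, that is 3 h after lights on, and in mice killed 1 h after object recognition memory training (ORM+1 h), which together formed experiment 1. Experiment 2 comprised home-cage mice at zt15 and mice killed 12 h after training (ORM+12 h). Every group held 6 mice except HFS TRF at HC zt15, which held 5. HFS TRF and NC ad lib differ both in what and in when the mice ate, and these cannot be told apart because no chow group under TRF was analysed here. Mice were housed 6 per cage, so a group may share a cage, and p-values then measure the spread between mice that may not be independent. A cage and a diet at 1 condition then cannot be told apart.

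The libraries came from pS6-TRAP, in which ribosomes carrying phosphorylated ribosomal protein S6 are immunoprecipitated and the bound mRNA is sequenced. S6 is phosphorylated by kinases downstream of mTORC1 and ERK, so the method enriches mRNA that is attached to ribosomes in recently active cells. In the hippocampus, de novo protein synthesis in the hours after training is required for lasting memory. Time-restricted feeding gives access to food only in the active phase and aligns intake with the circadian clock. In these pooled-cell libraries, fewer cells of a type and less ribosome-bound RNA per cell cannot be told apart.

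Totals in the 47 libraries ranged from 34698914 to 62758570 counts per mouse, and 30141 genes with at least 10 counts in total over the 71 mice were tested. Of these, 14695 had a mean of at least 1 CPM (CPM being the count scaled to a common library size with TMM factors) over the 47 mice, and results below refer to them unless stated. Each of the 12 listed neuron markers was detected in both diets. Choroid plexus markers, which come from tissue lining the ventricles, varied by library in both diets, with summed levels of 103 to 16672 CPM in NC ad lib and 121 to 19246 CPM in HFS TRF.

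The comparison asks which differences from chow are present in mice whose high-fat sucrose diet was time-restricted. HFS TRF and NC ad lib differed for few genes once all conditions were pooled. At an adjusted p under 0.05 (edgeR's quasi-likelihood test, Benjamini-Hochberg), 114 genes, 0.378% of those tested, were called. Of these, 52 were higher in HFS TRF (0.173%) and 62 were lower (0.206%). Among genes of at least 1 CPM, 38 were called (0.259%), with 7 higher (0.0476%) and 31 lower (0.211%). The remaining 76 calls (0.492% of 15446 genes) had means under 1 CPM, where values rest on few reads, and are not weighed here. Simulated data could not show how often true changes under 1 CPM are recovered, since changes were planted only in genes of at least 1 CPM. Differences were small, since the 31 lower genes had a median log2 difference of -0.15 (range -0.35 to -0.12) and the 7 higher genes a median of 0.18 (range 0.13 to 0.70). In the same fit, HFS ad lib against NC ad lib gave 968 calls (3.21%), and among genes of at least 1 CPM 649 (4.42%), with 247 higher (1.68%) and 402 lower (2.74%). That comparison shares the NC ad lib mice. The direct comparison of HFS TRF with HFS ad lib gave 21 calls by edgeR (0.0697%), with 0 among the genes of at least 1 CPM, of which 999 had an unadjusted p under 0.05 (DESeq2 gave 5 calls over all genes). A difference between both feeding regimes on the high-fat sucrose diet was therefore not detectable for any gene of at least 1 CPM.

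The pooled calls lay close to the threshold, with a smallest adjusted p of 0.0382 by edgeR's quasi-likelihood test and 2834 genes of at least 1 CPM (19.3%) at an unadjusted p under 0.05. With bias-adjusted deviances or with edgeR's own filter on low counts 0 genes were called, whereas DESeq2 called 134 of all genes, 34 of the 38 among them. Leaving out 1 mouse at a time gave between 0 and 484 calls, and 33 of the 47 mice moved the count by over 1.5 times. No gene was called without replicate 2 or 4 of NC ad lib at ORM+12 h or without replicate 5 of HFS TRF at ORM+12 h, and 484 were called without replicate 3 of NC ad lib at HC zt15.

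**Figure D1:**
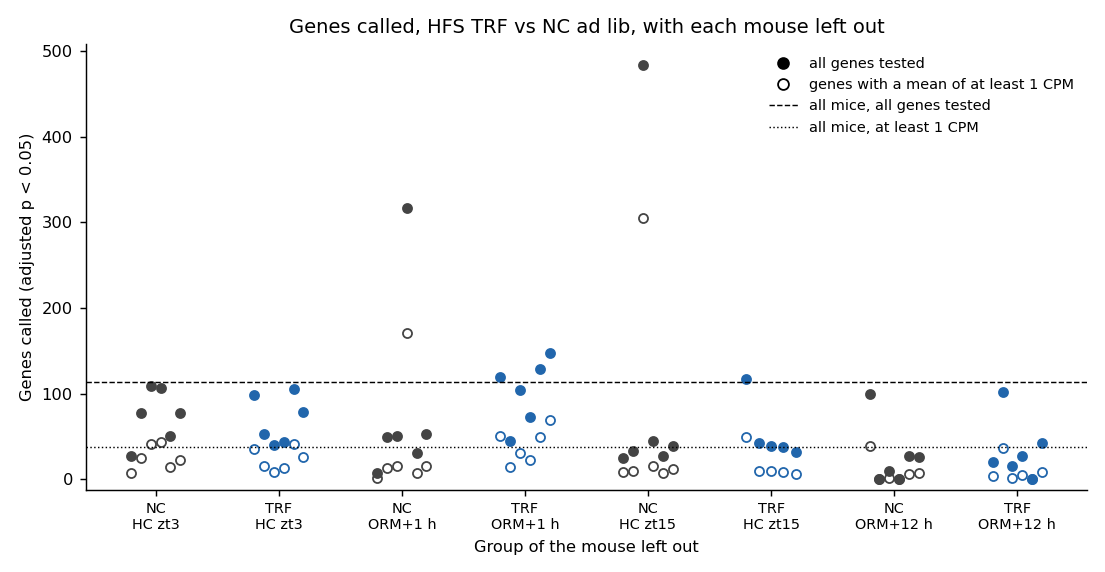
Number of genes called between HFS TRF and NC ad lib over all conditions (vertical axis, genes at an adjusted p under 0.05) with each of the 47 mice left out in turn (horizontal axis, by diet and condition), for all genes (filled) and for genes of at least 1 CPM (open). The counts ran from 0 to 484 around 114 with every mouse kept, and all 3 mice whose removal gave 0 calls were from ORM+12 h.

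Among the lower genes, Psmd2 had the smallest p. Psmd2 encodes a non-ATPase subunit of the base of the 19S proteasome regulator. Its lowest, median and highest levels were 224.3, 280.9 and 303.5 CPM in NC ad lib and 220.2, 251.1 and 280.6 CPM in HFS TRF, so the diets overlapped over all conditions. The log2 difference was -0.14 ± 0.03 (SE, n = 23 and 24 mice; edgeR's quasi-likelihood test, adjusted p = 0.0382), that is, the fitted level decreased by 9.3%. At ORM+12 h alone, the levels ran from 255.3 to 303.5 CPM in NC ad lib and from 220.7 to 251.1 CPM in HFS TRF, and no HFS TRF mouse reached the lowest NC ad lib mouse. Rab5if, which encodes a small membrane protein that interacts with the endosomal GTPase RAB5 and takes part in membrane protein assembly at the endoplasmic reticulum, was among the higher genes. Its lowest, median and highest levels were 45.38, 52.34 and 68.12 CPM in NC ad lib and 50.19, 59.11 and 74.22 CPM in HFS TRF, with a log2 difference of 0.17.

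The promoters of these 2 genes are shown because they represent both directions and carry the same short motif. Each runs from 250 bases before to 50 after the RefSeq start on build GRCm38.p6, 5′ to 3′ on the strand of the gene, and capitals mark the ETS core, CCGGAAG on either strand. The Psmd2 promoter lies at chr16:20651402-20651701 and that of Rab5if at chr2:156862872-156863171, both on the plus strand.
Psmd2: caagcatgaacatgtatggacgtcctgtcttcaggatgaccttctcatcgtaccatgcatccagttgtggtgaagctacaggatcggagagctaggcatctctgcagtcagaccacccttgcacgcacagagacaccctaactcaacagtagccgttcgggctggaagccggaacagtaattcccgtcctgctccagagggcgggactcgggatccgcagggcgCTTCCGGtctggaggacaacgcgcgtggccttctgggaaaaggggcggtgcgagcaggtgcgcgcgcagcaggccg
Rab5if: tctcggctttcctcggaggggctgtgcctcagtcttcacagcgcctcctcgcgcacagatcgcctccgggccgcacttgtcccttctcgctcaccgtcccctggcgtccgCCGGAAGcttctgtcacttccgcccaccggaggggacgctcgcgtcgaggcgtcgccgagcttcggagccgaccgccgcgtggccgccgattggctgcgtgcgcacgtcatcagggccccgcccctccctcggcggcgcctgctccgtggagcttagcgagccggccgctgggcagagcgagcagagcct
In Psmd2 the core lay 26 bases before the start on the opposite strand, and in Rab5if 140 bases before it on the gene's strand. RefSeq promoters were held for 26 of the 38 called genes. The ETS core was present in 8 of 22 lower genes (36.4%) and in 3 of 6 promoters of higher genes (50%), against 15.9% of the 13623 promoters of genes of at least 1 CPM and 8.86% of all 32841 promoters. The GC box GGGCGG, also on either strand, was present in 20 of 22 (90.9%), in 6 of 6, in 61.7% and in 35.7%, respectively. In lower genes the CCAAT box was present in 10 of 22 (45.5%), against 37.2% of promoters of genes of at least 1 CPM. The nuclear respiratory factor element was present in 2 of 22 (9.09%), against 9.09%. In higher genes these motifs were present in 3 of 6 and 1 of 6 promoters, which belong to 4 genes. These are counts of letters in a fixed window and not of bound sites.

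The other lower genes are given by the known role of their products, a grouping made after their values were seen. Besides Psmd2, the ubiquitin system was represented by Fbxo38 (-0.18) and Fbxo21, substrate receptors of SCF ubiquitin ligases, by Ubr7, and by Uba2, a subunit of the SUMO-activating enzyme. Nup88 (-0.19) and Tpr (-0.15) encode components of the nuclear pore, and Kpna6 (-0.15) encodes an importin alpha that carries cargo through it. Levels of Nup88 were 39.41, 56.92 and 63.84 CPM (lowest, median, highest) in NC ad lib and 37.71, 50.92 and 57.05 CPM in HFS TRF. The HFS TRF median of Nup88 was thus lower while the ranges overlapped for most mice.

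Membrane traffic was a further group, with Exoc7 (-0.17) and Exoc3, both of the exocyst complex that tethers secretory vesicles, Vps8 and Vps53 of endosomal tethering complexes, the sorting nexin Snx7 (-0.21), Hid1 (-0.15), Rufy1 and Snap47. Exoc7 levels were 48.8, 64.05 and 71.86 CPM in NC ad lib and 45.76, 56.48 and 62 CPM in HFS TRF. Chromatin and transcription factors included Brd8 (-0.18), a subunit of the TIP60 acetyltransferase complex, the histone chaperone subunit Rbbp4 (-0.16), the Integrator subunit Ints9 (-0.20), the elongation factors Leo1, Eloa and Nelfcd, Ccar2 and Arid4b. RNA-related and folding genes were Scaf11, Ddx27, the chaperonin subunit Cct3 (-0.15) and Hspa14. The remaining lower genes were the protein phosphatase gene Ppm1g (-0.12) and Dnaaf11 (-0.35), which takes part in the assembly of axonemal dynein arms and had the largest lower difference, at a mean of 3.91 CPM. Each of the genes in these groups was called, with adjusted p of edgeR's quasi-likelihood test between 0.0382 and 0.05.

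Fdft1 encodes squalene synthase, the first enzyme committed to sterol synthesis. It measured 63.44, 81.19 and 95.42 CPM (lowest, median, highest) in NC ad lib and 60.3, 74.08 and 86.41 CPM in HFS TRF, a log2 difference of -0.16. At ORM+12 h its 6 HFS TRF values, from 60.3 to 66.81 CPM, all lay below the 6 NC ad lib values, from 71.15 to 88.79 CPM. Fdft1 was the only one of 24 tested genes of cholesterol synthesis and its control that was called over all conditions.

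The 7 higher genes were mt-Rnr1, Krtcap2, Rab5if, Slc35c2, Abhd14a, Syndig1l and BC031181. mt-Rnr1 is the mitochondrial small ribosomal RNA, and its level was 8.648, 29.16 and 68.12 CPM (lowest, median, highest) in NC ad lib and 18.19, 44.49 and 123.7 CPM in HFS TRF. Its log2 difference of 0.70 ± 0.17 (SE; adjusted p = 0.0491, edgeR's quasi-likelihood test) was the largest among the 38 genes, although the mice of both diets overlapped widely. The library kit selects polyadenylated RNA, and near-identical nuclear copies of mitochondrial genes make such counts uncertain. Krtcap2, a subunit of the oligosaccharyltransferase complex, rose from a median of 26.11 to 30.96 CPM (log2 difference 0.20), and Slc35c2, a nucleotide sugar transporter, differed by 0.17.

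**Figure D2:**
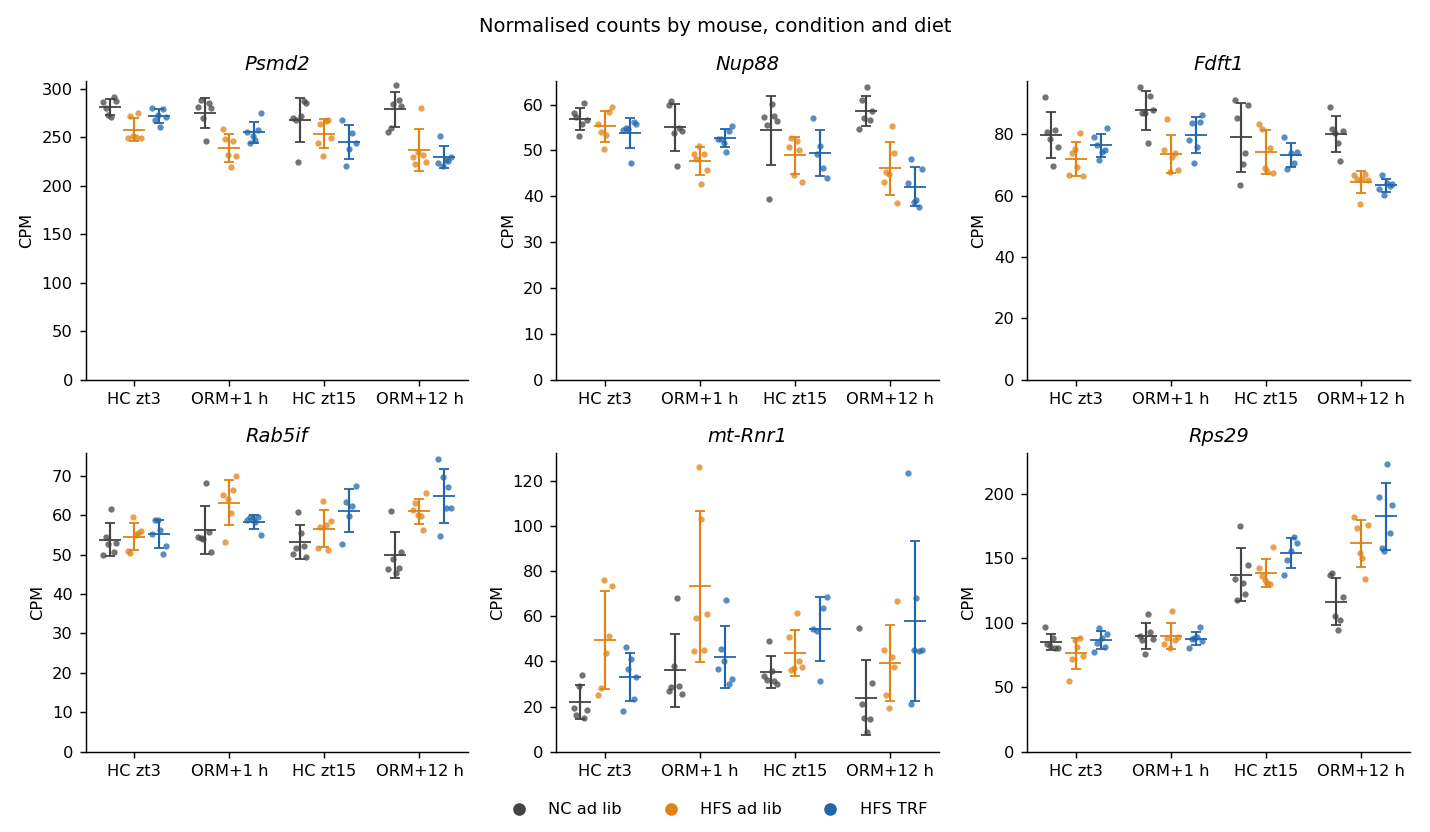
Levels of Psmd2, Nup88, Fdft1, Rab5if, mt-Rnr1 and Rps29 (vertical axes, CPM) in every mouse of the 3 diets at each of the 4 conditions (points), with the mean ± SD of each group. For Psmd2 the 6 HFS TRF mice at ORM+12 h, at 220.7 to 251.1 CPM, lie below the 6 NC ad lib mice, whereas at HC zt3 and ORM+1 h the diets overlap.

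For the same genes, the difference of HFS ad lib from NC ad lib was taken from the same fit and against the same NC ad lib mice. The median log2 difference of the 31 lower genes was -0.14 in HFS ad lib (-0.15 in HFS TRF), and that of the 7 higher genes was 0.14 (0.18 in HFS TRF). Exoc7 and Fdft1 differed by -0.20 each in HFS ad lib, against -0.17 and -0.16 in HFS TRF. mt-Rnr1 differed by 0.83 in HFS ad lib and by 0.70 in HFS TRF. In contrast, Vps8 differed by -0.06 in HFS ad lib and by -0.17 in HFS TRF. The direct comparison of HFS TRF with HFS ad lib did not call Vps8 (log2 difference -0.11, adjusted p = 0.299, edgeR's quasi-likelihood test). Both differences share the NC ad lib mice on which the 38 genes were chosen, so these values are set side by side as a description.

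**Figure D3:**
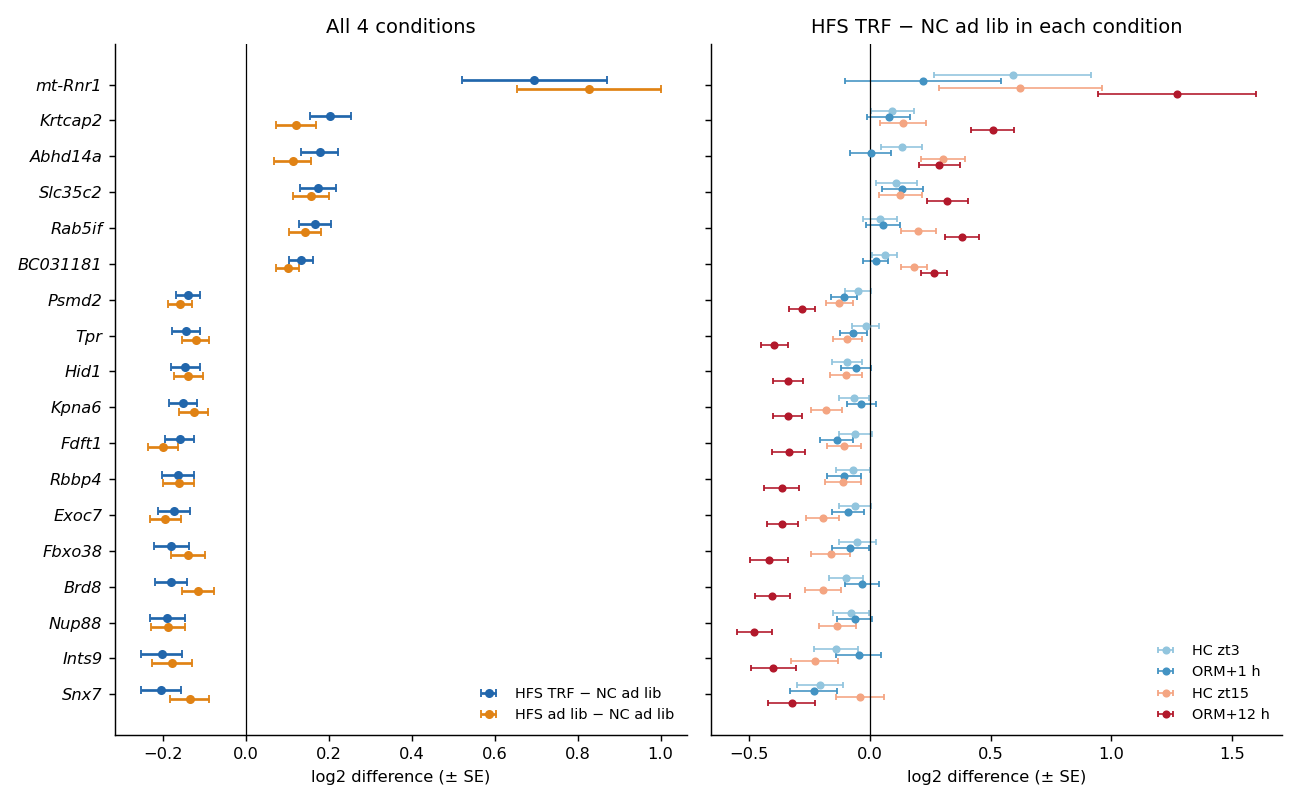
Log2 differences of the 18 named genes. The left panel gives HFS TRF minus NC ad lib and HFS ad lib minus NC ad lib over all conditions (points, bars are ± SE). The right panel gives HFS TRF minus NC ad lib at each condition, where the points of ORM+12 h lie farthest from 0 for most genes, such as -0.48 for Nup88.

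The direction of the pooled calls was shared by most conditions but their size was not. Of the 38 genes, 33 had the same sign in all 4 conditions (27 of 31 lower and 6 of 7 higher), whereas 2129 of the 14695 genes did so (14.5%). These 38 were chosen from the same mice, so the share describes them and is no test. The exceptions were Exoc3, Snap47, Ddx27, Ccar2 and Syndig1l. The difference was largest at ORM+12 h for 36 of the 38 genes, all 31 lower ones included, and at HC zt15 for Abhd14a and Syndig1l. For the lower genes the median log2 difference was -0.06 at HC zt3, -0.08 at ORM+1 h, -0.16 at HC zt15 and -0.34 at ORM+12 h, and for the higher genes 0.09, 0.08, 0.20 and 0.32.

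In tests within a condition, edgeR called genes at ORM+12 h alone. There, 2426 genes of at least 1 CPM differed (16.5%), with 909 higher (6.19%) and 1517 lower (10.3%) in HFS TRF and a smallest adjusted p of 1.22e-05. At HC zt3, ORM+1 h and HC zt15 edgeR called 0 genes, with 169, 776 and 1432 genes of at least 1 CPM at an unadjusted p under 0.05, respectively. All 38 genes were called at ORM+12 h and 0 of them in any other condition. Over the remaining conditions, edgeR called 0 genes without ORM+12 h, 0 without HC zt15 and 1 without HC zt3, but 428 without ORM+1 h. The pooled calls thus depended on several conditions, and these counts do not single out ORM+12 h. Of the 38 genes, however, 34 were also called within experiment 2 alone and 0 within experiment 1. Genes whose 6 HFS TRF mice were all higher or all lower than every NC ad lib mouse numbered 182 and 448 at ORM+12 h (4.29% of 14695), but 16 and 24 at HC zt3 (0.272%), 73 and 34 at ORM+1 h (0.728%) and 12 and 26 at HC zt15 (0.259%), the last with 5 HFS TRF mice. Without 1 mouse, the ORM+12 h count over all genes, 2645 (8.78%), ranged from 1416, without replicate 4 of NC ad lib at ORM+12 h, to 2721.

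At ORM+12 h 12 of the 18 genes named for their pooled difference separated the diets completely, where 4.29% of genes of at least 1 CPM did so. The 18 were chosen from the same mice, so this describes them and is no test. Nup88 ran from 54.7 to 63.84 CPM in NC ad lib and from 37.71 to 48.08 CPM in HFS TRF, and Kpna6 from 107.7 to 137.7 and from 81.83 to 103.1 CPM. Brd8 ran from 40.07 to 46.11 CPM in NC ad lib and from 27.46 to 38.37 CPM in HFS TRF, and Exoc7 from 58.62 to 71.86 and from 47.71 to 56.85 CPM. For each of these 4 genes the 6 HFS TRF mice were lower than any NC ad lib mouse. Among the higher genes, Krtcap2 did not overlap either, at 24.24 to 29.73 CPM in NC ad lib and 32.47 to 41.51 CPM in HFS TRF, and nor did BC031181, at 122.2 to 152.6 and 157.4 to 170.2 CPM. Conversely, Snx7 overlapped, at 14.55 to 17.22 CPM in NC ad lib and 11.26 to 16.77 CPM in HFS TRF, as did Ints9, Rab5if, mt-Rnr1, Slc35c2 and Abhd14a.

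Other genes with the smallest p at ORM+12 h, chosen after their values were seen, were not called over all conditions. The kinase gene Stk11, which encodes LKB1, the upstream activator of AMPK, ran from 96.47 to 114 CPM in NC ad lib and from 119.3 to 146.6 CPM in HFS TRF (log2 difference 0.39). Pdpk1, which encodes PDK1, the kinase that phosphorylates AKT and S6 kinases, ran from 137.4 to 160.1 CPM in NC ad lib and from 106.7 to 124.5 CPM in HFS TRF (-0.38). Stk11 and Pdpk1 were apart in opposite directions, each without overlap, which describes genes chosen for their p at ORM+12 h. Of 33 listed genes of insulin and IGF signalling, 2 were higher and 2 lower there. That is a smaller share than the 16.5% called among genes of at least 1 CPM. Sec24b, a cargo adaptor of COPII vesicles, differed by -0.48, and Sys1 and Vti1b, both of Golgi and endosomal traffic, by 0.50 and 0.37. Over all conditions the differences of Stk11 and Pdpk1 were 0.12 and -0.10.

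A difference between conditions passed its own test for 51 genes (3-df interaction F test in edgeR, 0.169%), 48 of them of at least 1 CPM (0.327%), while DESeq2's likelihood ratio test called 744. The named genes Ctr9, Synrg and Rps29 headed this list with an adjusted p of 0.0333 each in edgeR's quasi-likelihood test. Ctr9 encodes a subunit of the PAF1 complex, which travels with RNA polymerase II. Its log2 differences were 0.04 at HC zt3 and 0.09 at ORM+1 h but -0.37 at HC zt15 and -0.36 at ORM+12 h. At HC zt15 its levels were 45.98 to 59.49 CPM in NC ad lib and 38.55 to 43.24 CPM in HFS TRF, with no overlap, and at ORM+12 h 46.29 to 59.74 and 35.66 to 43.84 CPM, again with none. The diets were thus apart for Ctr9 in both conditions of experiment 2, although at HC zt15 no gene passed the test within the condition.

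Synrg, a partner of the AP-1 adaptor in vesicle traffic from the Golgi, differed at ORM+12 h by -0.41, with 116.6 to 125.0 CPM in NC ad lib and 88.73 to 98.4 CPM in HFS TRF. Its differences at the other conditions were -0.05, 0.01 and -0.07. Rps29, a protein of the small cytosolic ribosomal subunit, differed by 0.65 at ORM+12 h, with 94.62 to 138.7 CPM in NC ad lib and 155.8 to 223.2 CPM in HFS TRF. At HC zt3, ORM+1 h and HC zt15 Rps29 differed by 0.02, -0.04 and 0.16. Both genes separated the diets completely at ORM+12 h. Among the 38 genes, Tpr was the pore component that passed the interaction test (adjusted p = 0.0391, edgeR's quasi-likelihood test), with a log2 difference of -0.40 at ORM+12 h.

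Members of the gene lists are given for ORM+12 h, where 3.47% of all tested genes were higher and 5.31% lower, and 6.19% and 10.3% of those of at least 1 CPM. No list was tested as a set. Of 27 glycolysis genes 11 were lower and 0 higher in HFS TRF, among them Gapdh (-0.34), with 224 to 285.9 CPM in NC ad lib and 181.3 to 240.5 CPM in HFS TRF, and Pfkl, the liver-type phosphofructokinase, with 385.2 to 453.1 and 305.3 to 358.9 CPM. Pfkl separated the diets and Gapdh did not. Of 19 heat shock genes, 7 were lower and 0 higher. The smallest p was that of the inducible cytosolic chaperone Hsp90aa1, at 664.7, 774.4 and 928.2 CPM (lowest, median, highest) in NC ad lib and 488.8, 525.8 and 648.5 CPM in HFS TRF (log2 difference -0.51 ± 0.10 SE; edgeR's quasi-likelihood test, adjusted p = 0.000419). Every HFS TRF mouse lay below every NC ad lib mouse. The constitutive Hspa8 (-0.35) and the mitochondrial Hspd1 (-0.33) were lower as well, but over all conditions neither these nor Hsp90aa1 were called (Hsp90aa1 adjusted p = 0.107, edgeR's quasi-likelihood test).

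In cholesterol synthesis and its control, 5 of 24 genes were lower at ORM+12 h and 0 higher. Besides Fdft1 these were Hmgcs1, the cytosolic HMG-CoA synthase, Hsd17b7, Fdps and Stard4. Hmgcs1 had 141.5, 170.8 and 176.9 CPM in NC ad lib and 109.2, 123.3 and 148.3 CPM in HFS TRF (lowest, median, highest), a log2 difference of -0.41 with a slight overlap. 3 further lists were added after values were seen. Of 49 proteasome genes 15 were lower and 0 higher, of 9 CCT chaperonin subunits 8 were lower, and of 25 nucleoporins 9 were lower. Psmd6, another 19S subunit, had a median of 104.9 CPM in NC ad lib and 82.59 CPM in HFS TRF.

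Fatty acid synthesis had 4 of 25 genes lower and 1 higher at ORM+12 h, a share near the 16.5% called among genes of at least 1 CPM. The lower ones were Fasn (-0.51), which encodes fatty acid synthase, Acly (-0.37) and Acaca (-0.27), which supply its substrates, and Me1 (-0.23), whereas the desaturase Scd3 was higher (0.90). In glutathione metabolism and its NRF2 control, the synthesis genes Gclc (-0.23) and Gss (-0.29) were lower and the peroxidases Gpx1 (0.34) and Gpx4 (0.39) higher, 4 of 21 genes in all and thus near the 16.5% called among genes of at least 1 CPM. None of the genes named here passed the test over all conditions.

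Genes of the cytosolic ribosome moved the other way at ORM+12 h. Of 85 ribosomal protein genes 33 were higher and 1 lower, with a median log2 difference of 0.18. Rpl31 of the large subunit had 89.57 to 115.5 CPM in NC ad lib and 118.3 to 153 CPM in HFS TRF, without overlap. Nuclear genes of oxidative phosphorylation were split, with 26 of 84 higher and 7 lower. Cox8a, a small subunit of cytochrome c oxidase, was higher (median 431.5 against 577.2 CPM), whereas Atp5f1a, the alpha subunit of ATP synthase, was lower (1440 to 1609 against 1160 to 1357 CPM). The higher members had a median merged exon length of 2512.5 bases and the lower ones of 4628 bases.

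Transcript length moved with these differences. Across the 12919 protein-coding genes of at least 1 CPM, merged exon length and log2 difference had a Spearman rho of -0.25 at ORM+12 h, -0.26 at HC zt15, 0.23 at ORM+1 h and 0.02 at HC zt3, given as a description across genes that share libraries. Genes higher at ORM+12 h had a median length of 4491.5 bases, genes lower there 8630 bases, and all genes 6582 bases. The part of length in the lists of short genes, such as the ribosomal proteins, was not tested.

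**Figure D4:**
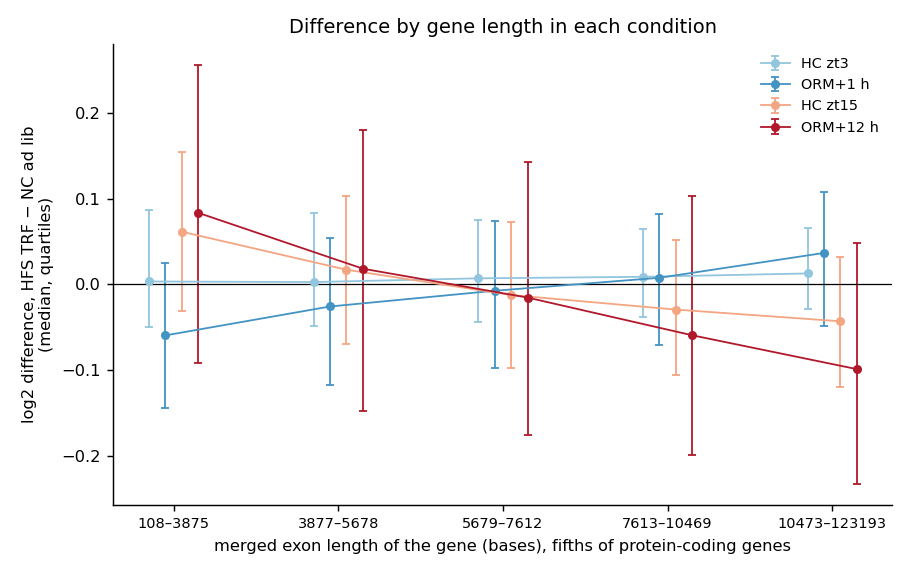
Median log2 difference of HFS TRF from NC ad lib (vertical axis) in 5 equal bins of merged exon length (horizontal axis, shortest to longest) of 12919 protein-coding genes at each condition. At ORM+12 h the medians run from 0.083 in the shortest to -0.099 in the longest bin, and at ORM+1 h from -0.059 to 0.037.

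Transcripts encoded by mitochondrial DNA had the largest list median over all conditions, at HC zt15 and at ORM+12 h, but not at HC zt3 or ORM+1 h, where choroid plexus markers lay farther from 0. Of 13 such genes, 8 were higher and 0 lower at ORM+12 h, with median log2 differences of 0.57, 0.19, 0.72 and 1.15 at HC zt3, ORM+1 h, HC zt15 and ORM+12 h. Over all conditions the median was 0.70 and 0 passed the test, the ribosomal RNA mt-Rnr1 not being part of this list of protein-coding genes, while in HFS ad lib, against the same NC ad lib mice, 8 were called and the median was 0.80. Summed over the list, levels were 168.6 to 967.2 CPM in NC ad lib and 242.2 to 1192.7 CPM in HFS TRF at ORM+12 h, and the highest NC ad lib mouse, replicate 1, lay within the HFS TRF range. With the level of mt-Co1 as a covariate, 49 genes were called over all conditions and 0 of at least 1 CPM.

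Markers of cell types were checked in the same way. Of 12 myelinating oligodendrocyte markers 4 were higher at ORM+12 h and 0 lower. Mobp, a structural myelin protein, had 46.09, 62.34 and 80.67 CPM (lowest, median, highest) in NC ad lib and 82.3, 95.32 and 102.6 CPM in HFS TRF, so that all HFS TRF mice were above all NC ad lib mice. Mbp had 367.3 to 539.7 and 513.4 to 619.1 CPM. The summed myelin markers were 881 to 1215 CPM in NC ad lib and 1237 to 1450 CPM in HFS TRF at ORM+12 h, and the ranges overlapped in the other conditions. No listed oligodendrocyte marker was at 0 in either diet, and the part of this shift in the other differences at ORM+12 h was not tested. Microglia markers, 14 in all, had a median log2 difference of 0.15 over all conditions with 0 called, and of -0.04 at ORM+1 h. Their summed level had a median of 112.7 CPM in NC ad lib and 128.2 CPM in HFS TRF with overlapping ranges. In HFS ad lib, against the same NC ad lib mice, 7 of these markers were called higher and the median log2 difference was 0.53. Their median summed level in HFS ad lib was 128.3 CPM, with a highest value of 794.5 CPM at HC zt15.

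Genes for neuronal receptors were also listed. Of 27 ionotropic glutamate receptor subunits and their auxiliary proteins 4 were higher at ORM+12 h and 0 lower, namely the AMPA receptor partners Cnih2 (0.41), Cnih3 and Cacng2 (0.35) and the kainate receptor subunit Grik5. Of 12 neuron markers, the dendritic Map2 (-0.23) and the neurofilament gene Nefl (-0.25) were lower and 0 higher. The shares called in both lists were near the 16.5% called in either direction among genes of at least 1 CPM at ORM+12 h. By direction, 6.19% of those genes were higher and 10.3% lower. Choroid plexus markers had a median log2 difference of 1.06, -1.02, 0.08 and 0.98 in the 4 conditions with 0 called.

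**Figure D5:**
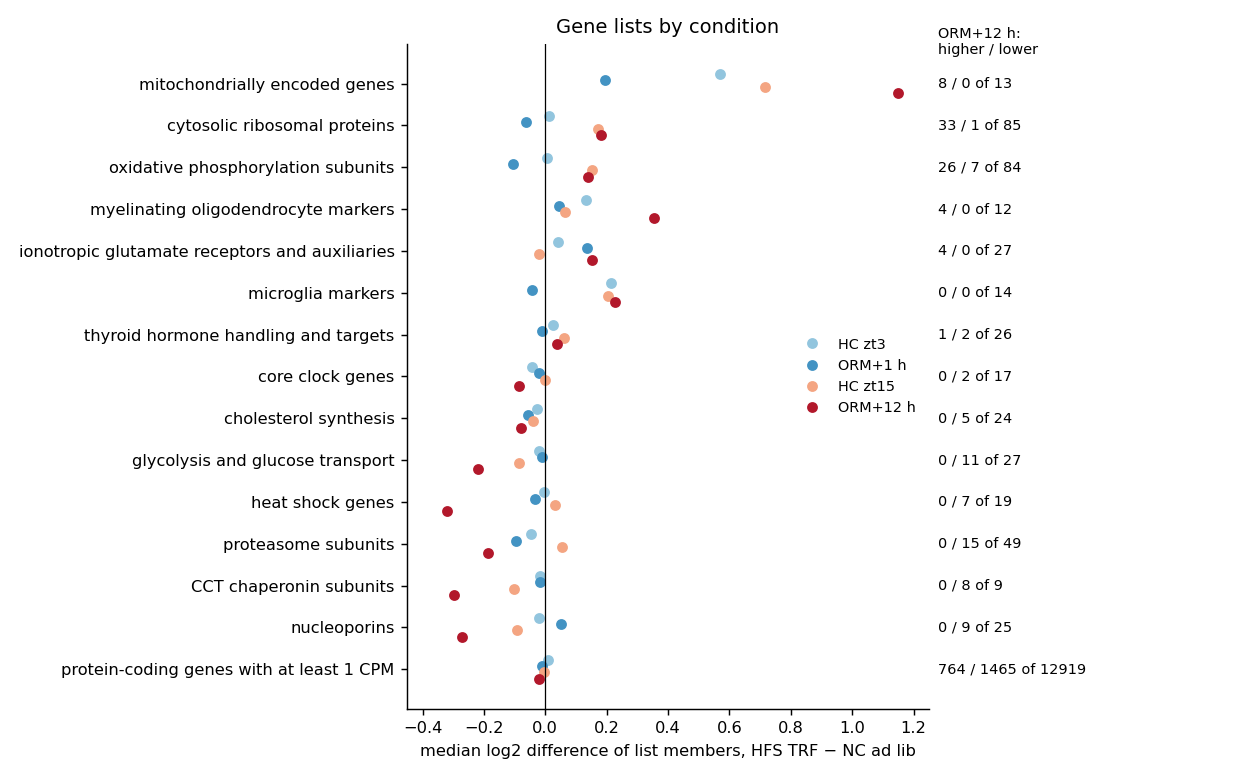
Median log2 difference of HFS TRF from NC ad lib (horizontal axis) of each gene list (vertical axis) at the 4 conditions (points), with the number of members higher and lower at ORM+12 h written beside it. The mitochondrially encoded genes reach 1.15 at ORM+12 h with 8 higher and 0 lower, while glycolysis and heat shock genes lie below 0 there.

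The study asked in particular about thyroid hormone signalling and the circadian clock, so their genes were named whatever their values. None of the 12 genes was called over all conditions by edgeR's quasi-likelihood test. The deiodinase Dio2, which makes the active hormone, differed by 0.05 (adjusted p = 0.936) and Dio3, which inactivates it, by -0.21 (adjusted p = 0.747). For Dio3 the pooled value combined opposite signs, with a log2 difference of -1.63 ± 0.42 (SE) at HC zt15 (adjusted p = 0.293, edgeR's quasi-likelihood test) and 0.53 at ORM+12 h (adjusted p = 0.422), and the interaction had an adjusted p of 0.128. At HC zt15 Dio3 ran from 0.822 to 4.27 CPM in NC ad lib and from 0.344 to 0.963 CPM in the 5 HFS TRF mice, with overlap. The receptor genes Thra and Thrb differed by 0.06 and -0.01, the thyroxine transporter Slco1c1 by 0.12 and the hormone carrier Ttr by 0.11. Thra was higher at ORM+12 h (log2 difference 0.28, adjusted p = 0.0127, edgeR's quasi-likelihood test), with 1762 to 2188 CPM in NC ad lib and 2265 to 2741 CPM in HFS TRF, and its diets did not overlap. Of 26 thyroid hormone genes, Thra was higher there and the receptor coactivators Ncoa1 and Med1 were lower, 3 genes in all and a smaller share than the 16.5% called among genes of at least 1 CPM. Med1 had a median of 41.9 CPM in NC ad lib and 34.42 CPM in HFS TRF.

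Among 17 core clock genes, Bmal1 and Cry2 were lower at ORM+12 h and 0 were higher, a share near the 10.3% of all genes of at least 1 CPM that were lower there. Bmal1, the activator of the clock loop, had 32.36 to 38.97 CPM in NC ad lib and 21.3 to 30.96 CPM in HFS TRF (log2 difference -0.41, adjusted p = 0.0052, edgeR's quasi-likelihood test), without overlap. Cry2, a repressor of that loop, had 201.9 to 215.7 CPM in NC ad lib and 164.6 to 187.6 CPM in HFS TRF. Over all conditions Bmal1 differed by -0.14 (adjusted p = 0.165), and Per1, Per2, Dbp and Nr1d1 by -0.10, 0.02, 0.07 and -0.05. The glucocorticoid target Fkbp5 differed by -0.01.

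Both experiments were also fitted apart, since they share no mice. In experiment 1 edgeR called 0 genes between HFS TRF and NC ad lib (2346 at an unadjusted p under 0.05), and in experiment 2 it called 586 (1.94%), with 146 higher (0.484%) and 440 lower (1.46%). Of these, 559 were of at least 1 CPM (3.8%), with 126 higher (0.857%) and 433 lower (2.95%). Of these 586, 248 (42.3%) had the same sign in experiment 1, where 51.6% of all genes did, and 9 (1.54%) had the same sign with an unadjusted p under 0.05, against 4.33% of all genes.

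The ad lib effect seen in experiment 1 could be looked up in HFS TRF mice of experiment 2, which share no mouse with it, controls included. Within experiment 2 itself, edgeR called 0 genes between HFS ad lib and chow (3344 at an unadjusted p under 0.05). The ad lib effect was thus not detected in the experiment used for the look-up, and the reverse look-up had no genes. In experiment 1, HFS ad lib differed from chow in 537 genes (1.78%), 506 of them of at least 1 CPM (3.44%). Of these, 404 (79.8%) had the same sign in HFS TRF in experiment 2, against 58.2% of all genes of this level, and 112 (22.1%) also had an unadjusted p under 0.05 there, against 14.1%. Among the genes lower in HFS ad lib, 228 of 273 (83.5%) were lower in HFS TRF and 82 (30.0%) had an unadjusted p under 0.05. Among the genes higher in HFS ad lib, 176 of 233 (75.5%) were higher in HFS TRF. Of these 233, 30 (12.9%) were higher with an unadjusted p under 0.05. The 14.1% of all genes counts both directions together, so it is no reference for either direction alone. Genes with the smallest p in HFS TRF included Exoc7, Cct3, Kpna6, Psmd2, Uba2, Leo1, Hid1 and Fdft1, all lower in both. Also included were mt-Rnr1, mt-Co1, mt-Rnr2 and the noncoding RNAs Meg3 and Snhg11, all higher in both. These genes were picked for their values, so their shared sign describes them and is no test. Meg3 differed by 0.56 in HFS ad lib in experiment 1 and by 0.67 in HFS TRF in experiment 2, and Snhg11 by 0.48 and 0.62. In the HFS TRF mice of experiment 1 these named genes had the same sign but smaller differences than in experiment 2. There, Meg3 differed by 0.14, Snhg11 by 0.08, mt-Rnr1 by 0.40, Cct3 by -0.03 and Psmd2 by -0.08.

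Of the 76 calls under 1 CPM, Cxcl10, a chemokine induced by interferon, was the one inflammatory gene called over all conditions among 28 listed (log2 difference 1.65, adjusted p = 0.0441, edgeR's quasi-likelihood test). Its level was 0.036 to 0.637 CPM in NC ad lib and 0.040 to 3.66 CPM in HFS TRF with a mean of 0.444 CPM over the 47 mice. The ranges overlapped, and the mice with the highest levels were HFS TRF mice.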

How the data were processed

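Hippocampal pS6-TRAP libraries of 71 mice were prepared with a stranded mRNA kit. The deposited values are raw read counts per gene, made by the authors with Trim Galore 0.6.7, cutadapt 3.4, HISAT2 2.2.0 and featureCounts (Subread 2.0.3) on GRCm39, as the submitters' processing notes name them (mm9 is also named there, without a role). Members, lists and tests were chosen with earlier results of these data known. Genes with at least 10 counts in total were kept and scaled by TMM. A model with condition and diet over all 71 mice was fitted in edgeR 4.0.16 (quasi-likelihood F test, R 4.3.3), with Benjamini-Hochberg adjustment over 30141 genes and a threshold of 0.05. A model with 12 groups of diet and condition gave differences within conditions and the interaction test. SE was the log2 difference over the square root of F. CPM uses TMM-scaled library sizes, which leave the median of all genes near 0. Named genes were, by rule, up to 12 per direction of at least 1 CPM with the smallest p and the same sign in all 4 conditions, 3 interaction genes and 12 thyroid, clock and stress genes. Members of lists and the low-count gene were named for their values. Alternatives included DESeq2 1.42.0, RLE scaling, other filters, covariates and leaving out each mouse. The test was tested on simulated data. Annotation was GENCODE vM39, and promoters came from RefSeq.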

Additional observations from a re-analysis of the deposited data

Results flagged for a closer look

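Of 96 groups of diet and condition over 12 named genes, 12 held a mouse whose gap to the others was large for the range of its group, where chance gives about 1 in 20. Replicate 3 of NC ad lib at HC zt15 stood apart for Psmd2 (224.3 CPM), Nup88 (39.41 CPM), mt-Rnr1 (48.97 CPM) and Synrg (83.02 CPM), and replicate 4 of NC ad lib at ORM+1 h for Exoc7 (48.8 CPM), Rab5if (68.12 CPM) and mt-Rnr1 (68.12 CPM). These were the mice whose removal gave 484 and 317 calls. The others were replicate 2 of HFS TRF at ORM+12 h for Psmd2 (251.1 CPM), replicate 4 of HFS TRF at HC zt3 for Nup88 (47.36 CPM), replicate 2 of NC ad lib at ORM+12 h (61.04 CPM) and replicate 6 of HFS TRF at ORM+1 h (54.9 CPM) for Rab5if, and replicate 2 of NC ad lib at ORM+1 h for Synrg (112 CPM).

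The difference between HFS TRF and NC ad lib itself differed between conditions for 10 named genes (3-df interaction F test in edgeR). The adjusted p was 0.0333 for Ctr9, Synrg, Rps29, Vti1b, Sec24b and Gm10327, 0.0367 for Pdpk1, 0.0391 for Tpr, and 0.0441 for Micos10 and Sys1. Vti1b, Sec24b, Gm10327, Pdpk1, Micos10 and Sys1 were chosen after their values were seen.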

How the results depend on the processing

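The values below are numbers of genes called. For HFS TRF against NC ad lib over all conditions (114), 39 were called among genes with at least 1 count in total, 0 with edgeR's own filter, 0 with bias-adjusted deviances, 1 among genes with a mean of at least 1 CPM, 0 with only the 47 mice, 194 with Ttr as a covariate and 49 with mt-Co1. Without HC zt3 1 was called, without ORM+1 h 428, without HC zt15 0 and without ORM+12 h 0, and 0 within experiment 1, 586 within experiment 2 and 0 with counts summed per group. RLE scaling (89), the model of 12 groups (81) and DESeq2 (134) stayed within 1.5 times. Leaving out each mouse gave 0 to 484 and, at ORM+12 h, 1416 to 2721 (2645 with every mouse).

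For HFS ad lib against NC ad lib (968), 496 were called with edgeR's filter, 494 with bias-adjusted deviances, 429 with mt-Co1, 0 without HC zt3, 1 without ORM+1 h, 60 without ORM+12 h, 537 in experiment 1, 0 in experiment 2 and 0 with summed counts. For HFS TRF against HFS ad lib (21), 2 were called with at least 1 count in total, 87 with mt-Co1 and 5 with DESeq2, and 0 with edgeR's filter, bias-adjusted deviances, a mean of at least 1 CPM, either replicate block, any condition left out, either experiment, summed counts or 12 groups. For the interaction (51), 155 were called with edgeR's filter, 246 with a mean of at least 1 CPM and 744 with DESeq2.

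The replicate numbers did not pair the mice: over 23 pairs of HFS TRF and NC ad lib with the same number, deviations correlated at -0.527 to 0.610, 10 above 0.1, and a mouse correlated best with its own number in 3 of 23. With the replicate block within condition 408 genes were called over all conditions, and within experiment 225.

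None of the 18 genes named for their pooled difference changed sign under an alternative. They were chosen for having the same sign in all 4 conditions of these mice, so this describes them and is no test. Among the interaction, thyroid, clock and stress genes, none of which was called over all conditions, Ttr changed sign under 9 of 66 alternatives, Fkbp5 under 4, Dio2 and Slco1c1 under 3, Dio3, Thrb, Per2 and Dbp under 2, and Ctr9, Rps29 and Thra under 1. Of the 38 genes of at least 1 CPM, 34 were also called by DESeq2, 35 with 12 groups, 26 with RLE scaling and 0 with edgeR's filter, bias-adjusted deviances or only the 47 mice. The cause of these changes was not tested. Depth limits chiefly the genes under 1 CPM, whose values rest on few reads per mouse.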
